A study of Mus musculus with 52 samples.

Results

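The 36 genes described here encode proteins that build ribosomes or sit in the nucleolus, together with the transcription factor gene Myc. They were taken by symbol, all 36 were found, and they are 36 of the 23135 genes in the deposited count table. By role they are 4 box C/D snoRNP genes (Nop56, Nop58, Fbl, Rrp9), 4 box H/ACA snoRNP genes (Dkc1, Gar1, Nhp2, Nop10), 4 genes for nucleolar phosphoproteins and a helicase (Ncl, Npm1, Nolc1, Ddx21), 8 genes of the small subunit processome and 40S maturation (Wdr43, Utp20, Utp4, Nob1, Ltv1, Tsr1, Bysl, Kri1), 10 genes of 60S assembly (Ppan, Nop16, Nop2, Rrp1b, Rrs1, Wdr12, Bop1, Pes1, Ebna1bp2, Gnl3), 4 RNA polymerase I subunit genes (Polr1a, Polr1b, Polr1c, Polr1e) and 2 regulators of transcription (Myc, Mybbp1a).

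Ribosomes are assembled in the nucleolus, where RNA polymerase I transcribes the precursor of the large ribosomal RNAs. Box C/D particles guide methylation of that RNA and box H/ACA particles guide its pseudouridylation, while large processing complexes cut it and fold it into the precursors of the 40S and 60S subunits. MYC is a transcription factor that pairs with MAX on the sequence CACGTG, the E-box, and is known as a driver of ribosome biogenesis genes. Prostaglandin E2 (PGE2) is a lipid mediator that acts through the receptors EP1 to EP4, of which EP2 and EP4 raise cyclic AMP.

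The cells were type 1 conventional dendritic cells (cDC1), a subset specialised in presenting antigen to CD8 T cells. They were grown from C57BL/6J mouse bone marrow with GM-CSF and FLT3 ligand and sorted for CD103, and each of the 13 groups had 4 libraries, lettered A to D. The 4 h groups received PGE2 at 100 ng/ml, conditioned medium (CM) of BRAF-mutant melanoma cells, CM of Ptgs1/Ptgs2-/- melanoma cells that cannot make PGE2, or PGE2 after 30 min of receptor blockade at 5 µM (EP1, EP2, EP3 or EP4 singly, or EP2 with EP4 together), and the control was left untreated. The 24 h groups received PGE2, PGE2 with poly I:C at 10 µg/ml for the last 4 h, poly I:C alone for the last 4 h, or nothing; poly I:C is a double-stranded RNA that activates TLR3. All 13 groups share the same culture and sort protocol, which does not mean that they came from a single culture or sort. The group labelled as EP2 plus EP4 antagonists has a treatment entry that names an EP1 antagonist (SC-19220) with the EP4 antagonist, so its identity is given below only as labelled.

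RNA was counted as unique molecules at the 3' end. Totals ran from 42666 counts in an EP4 antagonist library and 54107 in untreated 4 h library A to 438491 counts, with a median of 295484.5. At the median depth a count of 0 allows up to 10.2 CPM (counts scaled to library size with TMM factors over all 52 libraries), taking 3 counts as the limit, and this covers counting error only. The cDC1 markers Xcr1, Clec9a, Irf8 and Itgae were detected in all groups, although Clec9a was at 0 in 1 library given PGE2 and poly I:C. The marker lists of granulocytes and mast cells, lymphocytes and melanoma cells held no gene that passed the filter on low counts, and each summed to at most 22.2 CPM in any library. The labels do not say if lettered libraries were separate cultures or animals, so the p-values below measure the spread between these libraries, which may be technical.

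The summed level of the 36 genes separated several groups before any test. It was 1605 to 1990 CPM in the PGE2 4 h libraries, 1921 to 2109 CPM with control CM and 2301 to 2671 CPM with Ptgs-deficient CM, against 2700 to 2970 CPM in untreated 4 h libraries. At 24 h it was 2661 to 3205 CPM with PGE2, 1193 to 1406 CPM with PGE2 and poly I:C and 1283 to 1580 CPM with poly I:C, against 2898 to 3305 CPM without treatment. The PGE2 and untreated libraries thus did not overlap at 4 h and overlapped at 24 h, and neither poly I:C group overlapped a group without poly I:C. These sums rest on the most abundant members, since Ncl, Nop58, Nhp2 and Npm1 each averaged over 200 CPM in untreated cells at both times. In bulk samples, fewer cells that express a gene and less of its RNA per cell cannot be told apart.

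**Figure D1:**
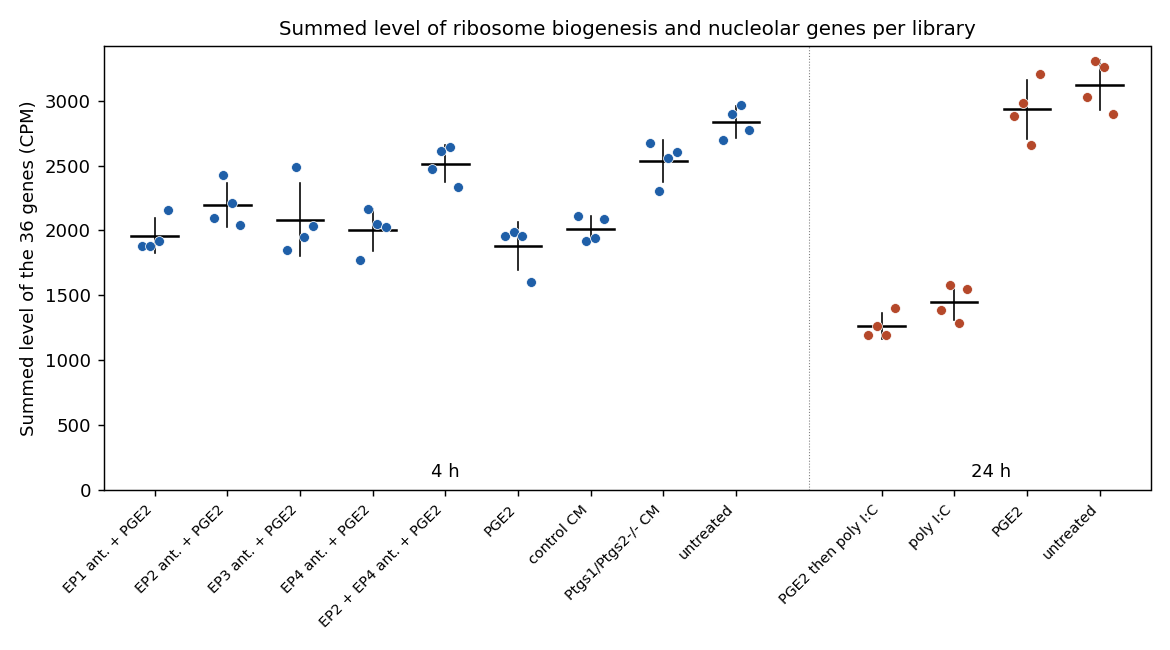
Summed level of the 36 genes in each of the 52 libraries (vertical axis, CPM) for the 13 groups; each dot is a library, the bar is the group mean and the line its SD (n = 4). The PGE2 4 h libraries sit between 1605 and 1990 CPM, below the untreated 4 h libraries at 2700 to 2970 CPM, and the 8 libraries with poly I:C sit between 1193 and 1580 CPM.

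PGE2 for 4 h lowered 4 members: Myc, the 60S assembly factor Ppan, the box C/D core protein gene Nop58, and Npm1, whose product nucleophosmin is an abundant nucleolar chaperone. Their log2 fold changes ran from -0.70 for Npm1 to -1.57 for Myc. No member rose, and all 28 members that passed the filter on low counts had a negative fitted difference. The test was edgeR's quasi-likelihood test with Benjamini-Hochberg adjustment over all genes tested, and a gene was called at an adjusted p of at most 0.05.

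Myc had 23.6, 53.5, 63.5 and 55.5 CPM in PGE2 libraries A to D, against 136, 137, 149 and 166 CPM in untreated libraries A to D. Every PGE2 library was below every untreated library, with PGE2 library A lowest. The log2 fold change was -1.57 ± 0.27 (SE; adjusted p = 1.75e-06), from 49 ± 17.5 CPM with PGE2 and 147 ± 14.1 CPM without (SD, n = 4 each). The gene lies on chromosome 15 at 61985391 to 61990374, plus strand, of GRCm38.

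Nop58 had 174, 168, 182 and 144 CPM in PGE2 libraries, against 271, 399, 260 and 293 CPM in untreated libraries. The groups did not overlap, and PGE2 libraries varied little among themselves. This was a log2 fold change of -0.89 ± 0.18 (adjusted p = 6.57e-05). Nop58 lies on chromosome 1 at 59684971 to 59719044, plus strand, and hosts snoRNA genes in its introns.

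Ppan had 66, 49.7, 37.5 and 16.7 CPM in PGE2 libraries, against 45.2, 147, 94.2 and 156 CPM in untreated libraries. Untreated library A, the shallow one, fell within the PGE2 range, so these groups overlapped. Its log2 fold change was -1.52 ± 0.32 (adjusted p = 0.000223). Ppan lies on chromosome 9 at 20888175 to 20892178, plus strand.

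Npm1 had 94.3, 180, 176 and 150 CPM in PGE2 libraries, against 226, 258, 248 and 243 CPM in untreated libraries. The groups did not overlap, and PGE2 library A was again the lowest. On the log2 scale the change was -0.70 ± 0.19 (adjusted p = 0.00455), and without PGE2 library A it was -0.54 with an adjusted p of 0.0699. Npm1 lies on chromosome 11 at 33152287 to 33163206, minus strand; it is known to have processed pseudogenes, and how the counting treated reads shared with them is not given.

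Across all 5754 genes tested at 4 h, 193 (3.35%) were lower and 300 (5.21%) higher with PGE2, and 49.2% of all genes had a positive difference. The median log2 fold change was -0.72 over the 28 members and -0.01 over all genes. In 7 members (Nop58, Npm1, Nop16, Nop2, Rrs1, Myc and Mybbp1a) every PGE2 library was below every untreated library, against 4.55% of all genes. For Pes1 and Polr1c the fitted differences of -0.06 and -0.12 were near 0, and their mean levels were slightly higher with PGE2 (49.9 against 44.5 CPM for Pes1, 38.2 against 34.9 CPM for Polr1c). Untreated library A, the shallowest of these 8 libraries, had 15.1 CPM of Pes1 against 50.3 to 57.1 CPM in the other 3.

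By role, the median log2 fold change with PGE2 at 4 h was -0.89 over 3 box C/D genes, -0.48 over 4 H/ACA genes, -0.64 over 4 phosphoprotein and helicase genes, -0.61 over 4 small subunit genes and -0.74 over 10 genes of 60S assembly. Among the members, Polr1c was the single RNA polymerase I subunit gene that could be tested, and it had -0.12. Cd3eap and Znrd1, RNA polymerase I subunit genes outside the members, were also tested and fell, as given below. The regulators Myc and Mybbp1a had a median of -1.16. Members outside the threshold included Dkc1, the pseudouridine synthase of H/ACA particles (-1.42, adjusted p = 0.0579), Rrs1 (-1.05, 0.0748) and Nhp2, an H/ACA core protein gene (-0.47, 0.0748). Nucleolin, encoded by Ncl and the most abundant member, had a log2 difference of -0.21 with an adjusted p of 0.466.

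Scaling by library totals in place of TMM moved the median of all genes from -0.01 to -0.13 and called 8 members lower, adding Dkc1, Nhp2, Rrs1 and Mybbp1a. Under totals, 237 genes were higher and 332 lower with PGE2, against 300 higher and 193 lower under TMM.

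Other genes of translation were tested in the same comparison, with no test of the difference between lists. Of 84 other ribosome biogenesis factors tested, 3 fell and none rose (Cd3eap, an RNA polymerase I subunit gene, -1.93; Sdad1 -0.82; Znrd1, another RNA polymerase I subunit gene, -0.69), with a median of -0.19; under totals 6 fell, with a median of -0.31. Of 60 cytosolic ribosomal protein genes, 1 rose (Rps27l, 1.03) and none fell; their median was 0.11 under TMM and -0.03 under totals. Of 9 RNA polymerase III genes, Gtf3a fell (-0.74). Of 32 other genes linked to MYC in metabolism and translation, 4 fell and 2 rose, among them the spermidine synthase gene Srm (-1.64), the chaperonin gene Hspe1 (-0.82) and the amino acid transporter heavy chain gene Slc3a2 (0.76); under totals 9 fell and 1 rose. None of 21 proliferation genes passed the test, and their smallest adjusted p was 0.3.

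The cDC1 marker list moved with PGE2 as well: 8 of 9 tested genes were lower, including Batf3 (-2.21), Ppt1 (-1.52), Naaa (-1.36) and Irf8 (-0.78). Its summed level was 3827 to 4600 CPM with PGE2, against 7179 to 7961 CPM without. The part of this shift in the members' change was not tested.

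**Figure D2:**
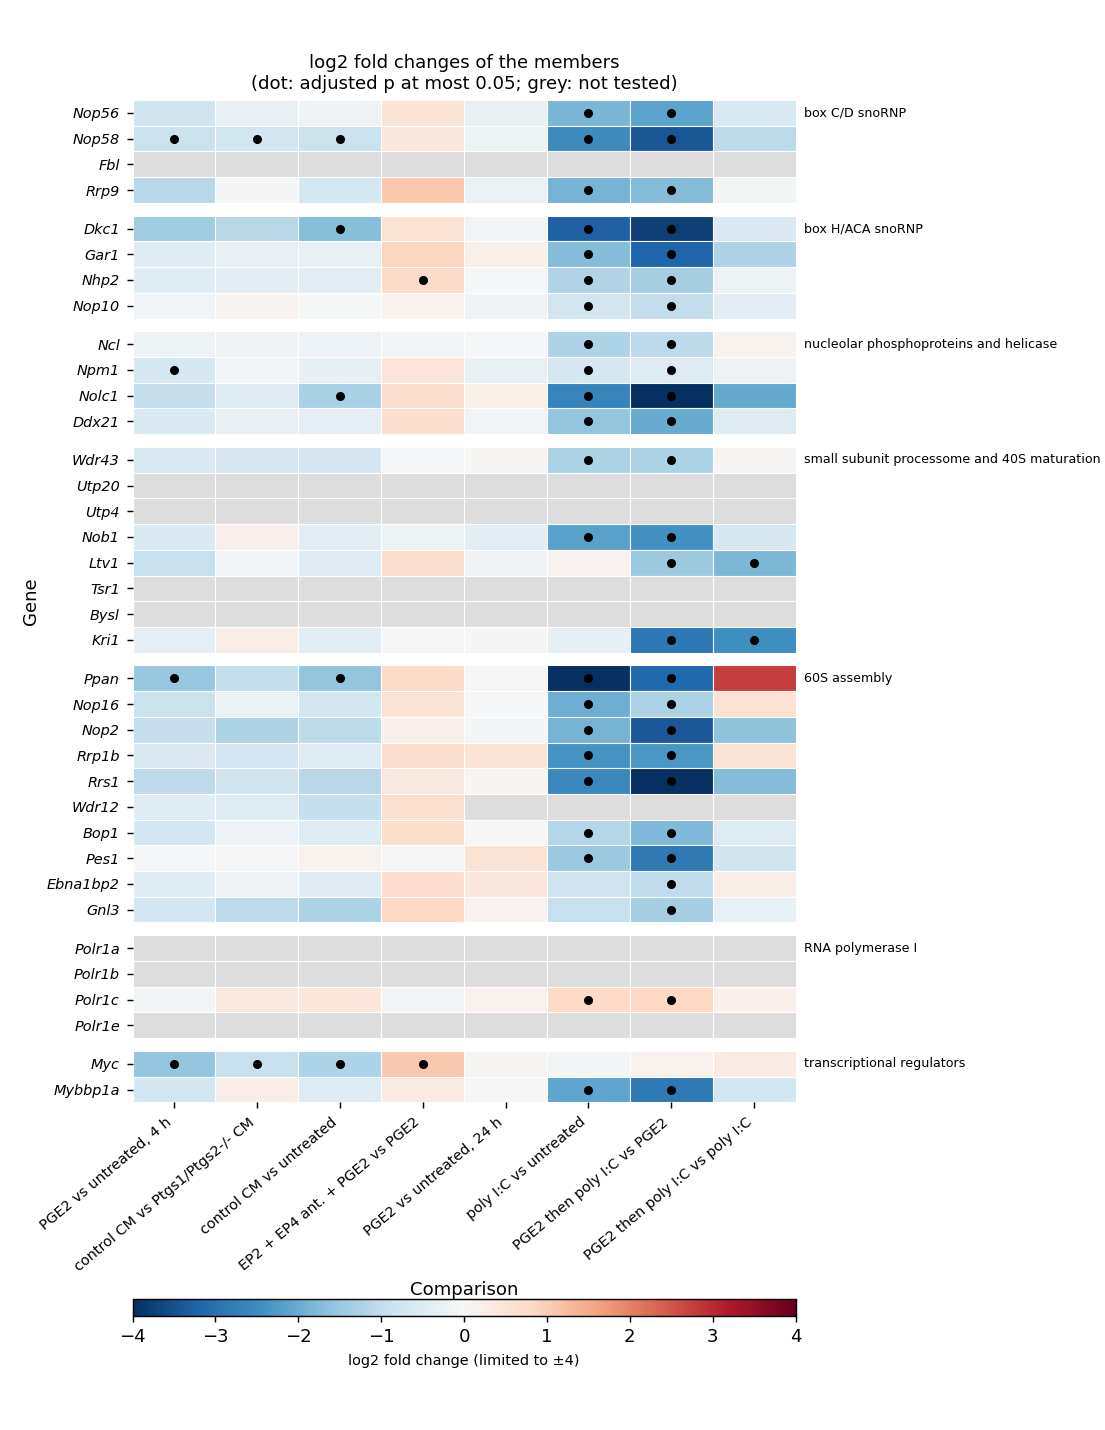
Log2 fold change (colour, limited to 4 either way) of the 36 genes, grouped by role down the page, in 8 comparisons across; a dot marks an adjusted p of at most 0.05 and grey marks genes that were not tested. PGE2 at 4 h has 4 dots, PGE2 at 24 h none, and poly I:C has 22, of which 21 are decreases.

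The promoter windows of the members, 250 bases before to 50 after the annotated start, were searched on both strands for the E-box CACGTG of MYC and for TGACGTCA, the full cyclic AMP response element (CRE) to which CREB binds; neither motif contains the other. RefSeq windows (GRCm38.p6) were found for 31 of the 36 genes. An E-box was present in 8 of these 31 (25.8%), against 8.09% of 27025 genes with a window. The 8 stretches are shown because they place the MYC motif within the windows of small subunit genes, 60S assembly genes and Mybbp1a; positions count from the start of transcription as +1, and capitals mark the motif.
Wdr43 (chr17:71616220-71616249, plus strand, motif from +18): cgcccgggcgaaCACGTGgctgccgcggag
Utp20 (chr10:88826765-88826789, minus strand, motif from +38): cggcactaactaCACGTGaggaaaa
Utp4 (chr8:106893643-106893672, plus strand, motif from +16): tgcgcaagcgcgCACGTGgggccggggcgg
Ltv1 (chr10:13193092-13193121, minus strand, motif from +29): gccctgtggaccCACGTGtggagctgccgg
Tsr1 (chr11:74898092-74898121, plus strand, motif from +25): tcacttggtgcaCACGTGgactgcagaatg
Nop2 (chr6:125131811-125131840, plus strand, motif from -60): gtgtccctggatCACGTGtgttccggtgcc
Pes1 (chr11:3963965-3963994, plus strand, motif from +3): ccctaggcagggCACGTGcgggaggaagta
Mybbp1a (chr11:72441355-72441376, plus strand, motif from +41): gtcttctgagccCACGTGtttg
Of these 8 genes, Wdr43, Ltv1, Nop2, Pes1 and Mybbp1a could be tested at 4 h, and none of them was called with PGE2 under TMM; Mybbp1a was called lower under totals.

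The full CRE was found in 1 of the 31 members (3.23%), against 2.03% of genes. That member was Ppan, one of the 4 genes lowered by PGE2 at 4 h, and the 250 bases before its start are shown with the element in capitals.
Ppan (chr9:20887925-20888174, plus strand, motif from -35): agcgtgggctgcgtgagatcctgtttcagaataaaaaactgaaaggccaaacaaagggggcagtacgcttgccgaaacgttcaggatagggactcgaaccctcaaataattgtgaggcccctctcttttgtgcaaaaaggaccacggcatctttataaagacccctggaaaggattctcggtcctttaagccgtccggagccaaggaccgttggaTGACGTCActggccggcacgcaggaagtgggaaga
Neither Ppan nor Nop58 had an E-box in the window, and no window was matched for Myc or Npm1. A match or its absence describes these letters only.

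Control CM was set against CM of Ptgs-deficient cells, which differ in the Ptgs1/Ptgs2 genotype of the melanoma cells. PGE2 in the media is not given here, so it cannot be told apart from other differences between the media. With control CM, 2 of 28 members were lower, Nop58 and Myc, and none was higher; 1.51% of all genes were lower and 2.43% higher. The median over the members was -0.31, with 22 negative and 6 positive differences.

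Nop58 had 201, 150, 173 and 147 CPM with control CM, against 311, 215, 316 and 306 CPM with Ptgs-deficient CM. The groups did not overlap, and library B was the lowest of the Ptgs-deficient libraries. The log2 fold change was -0.78 ± 0.17 (adjusted p = 0.000964).

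Myc had 61.5, 43.8, 53.5 and 90.1 CPM with control CM, against 151, 90.8, 136 and 112 CPM with Ptgs-deficient CM. The highest control CM library lay just below the lowest Ptgs-deficient one. The log2 fold change was -0.93 ± 0.25 (adjusted p = 0.0135). The call was lost without control CM library B (0.107) or C (0.0628) and without Ptgs-deficient library A (0.131) or C (0.0519), these values being adjusted p.

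Ppan averaged 40.9 ± 24.4 CPM with control CM and 83.7 ± 9.51 CPM with Ptgs-deficient CM and did not overlap, but missed the threshold (adjusted p = 0.064). Libraries also did not overlap for Wdr43 and Nop2, which makes 5 members lower by that count, against 3.49% of all genes. Of 84 other biogenesis factors none was called. The cDC1 markers were lower for 6 of 9 genes with control CM, with a summed level of 4930 to 5354 CPM against 6046 to 8637 CPM with Ptgs-deficient CM. Markers of type 2 conventional dendritic cells (cDC2), at low levels, summed to 51.1 to 82 CPM with control CM, against 30.3 to 40 CPM with Ptgs-deficient CM. The part of these lists was not tested.

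Each medium was also compared with untreated cells, which both comparisons share. With control CM, 5 of 28 members were lower than in untreated cells (2.75% of all genes): Nop58 (-0.90 ± 0.18, adjusted p = 4.01e-05), Ppan (-1.57 ± 0.32, 0.000111), Myc (-1.23 ± 0.25, 0.000127), Dkc1 (-1.71 ± 0.50, 0.0152) and Nolc1, which encodes a chaperone of snoRNPs (-1.30 ± 0.41, 0.0291). The members' median log2 difference from untreated cells was -0.52 with control CM and -0.26 with Ptgs-deficient CM. Over all genes these medians were 0 and 0.01. With Ptgs-deficient CM none of 28 members was called against untreated cells, where 5 of all genes (0.0869%) were. DESeq2 also called none of the members. At an unadjusted p under 0.05 there were 3 members. Among them, Mybbp1a had the smallest adjusted p (-0.78, 0.373), and Myc averaged 122 ± 26.6 CPM against 147 ± 14.1 CPM. With control CM 6 of 9 cDC1 markers were also lower than in untreated cells (summed level 4930 to 5354 CPM against 7179 to 7961 CPM), and their part was not tested.

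Ppan had 69.7, 25.6, 16.5 and 51.9 CPM with control CM, which overlapped the untreated libraries only through untreated library A at 45.2 CPM. Dkc1 had 4.1, 7.3, 12.4 and 21.8 CPM with control CM, against 30.2, 46.9, 37.1 and 42.3 CPM in untreated cells. These did not overlap, yet the Dkc1 call was lost without untreated library B (adjusted p = 0.0588), control CM library A (0.0767) or B (0.0661).

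Nolc1 had 28.7, 21.9, 4.12 and 21.8 CPM with control CM, against 15.1, 57, 48.5 and 50.2 CPM in untreated cells. Untreated library A was within the control CM range. The Nolc1 call was lost with no filter on low counts (0.106) and in 6 of 8 fits that left out a library: untreated B (0.113), C (0.0753) or D (0.078) and control CM B (0.0556), C (0.181) or D (0.0581).

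PGE2 was then given with antagonists of its receptors, each group being compared with the same PGE2 libraries in 5 comparisons. With the EP1, EP2, EP3 or EP4 antagonist alone, none of 28 members was called, and of all genes 0%, 0.417%, 0.0695% and 0.0348% were. At an unadjusted p under 0.05 there were 1, 2, 0 and 2 members, and DESeq2 called none in any of the 4. The smallest adjusted p in these 4 comparisons was 0.303, for Nop16 with the EP2 antagonist (0.98). Median log2 differences from PGE2 alone were -0.02 with the EP1, 0.32 with the EP2, 0.17 with the EP3 and 0.17 with the EP4 antagonist.

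Myc had 29.3, 38.7, 34.7 and 30.6 CPM with the EP1 antagonist and 82.9, 53.7, 55.8 and 48.4 CPM with the EP2 antagonist, against 23.6 to 63.5 CPM with PGE2 alone. It had 59.2, 114, 35 and 47.3 CPM with the EP3 antagonist and 60.4, 40.3, 44.9 and 28.9 CPM with the EP4 antagonist. All 4 groups overlapped PGE2 alone, and 1 EP3 library stood above the rest. The log2 differences from PGE2 alone had 95% intervals of -1.25 to 0.13 (EP1), -0.37 to 0.82 (EP2), -0.27 to 0.90 (EP3) and -1.01 to 0.39 (EP4). The estimate given below for the labelled pair, 1.09, lay outside these intervals, but this leaves its own error out of account. The differences between antagonist groups were not tested.

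In the group labelled EP2 plus EP4 antagonists, 2 of 28 members were higher than with PGE2 alone, Nhp2 and Myc, and none was lower; 4.21% of all genes were higher and 5.32% lower. The median was 0.60, with 23 positive and 5 negative differences, and 7 members did not overlap and were higher, against 6.88% of all genes.

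Nhp2 had 315, 346, 358 and 378 CPM in the labelled EP2 plus EP4 group, against 273, 222, 190 and 122 CPM with PGE2 alone. All 4 libraries of the antagonist group were above all 4 PGE2 libraries, and also above 3 of 4 untreated libraries (181, 265, 337 and 269 CPM). The log2 fold change was 0.78 ± 0.16 (adjusted p = 0.000113). Nhp2, on chromosome 11 at 51619735 to 51623714, overlaps Rmnd5b on the other strand at its 3' end; Rmnd5b had 62 CPM in the antagonist group and 60.6 CPM with PGE2 alone (-0.02).

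Myc had 97.5, 107, 140 and 90.5 CPM in the labelled EP2 plus EP4 group, above every library with PGE2 alone. The log2 fold change was 1.09 ± 0.27 (adjusted p = 0.00198). Npm1 (0.50, adjusted p = 0.0582), Nop58 (0.48, 0.0616) and Ppan (0.80, 0.119) missed the threshold, and the scaling by totals called Nop58 and Npm1 as well, 4 members in all. Set against untreated cells, this group had no member called in edgeR or DESeq2 (0.799% of all genes were in edgeR) and 6 at an unadjusted p under 0.05, with a median of -0.23.

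Other biogenesis factors followed in part: 4 of 84 rose and none fell in the labelled EP2 plus EP4 group against PGE2 alone (Pno1 1.30, Cd3eap 1.28, Noc2l 0.82, Znrd1 0.68); under totals 9 rose and none fell. Srm had 1.78 and Rps27l -1.07. The cDC1 markers were higher for 4 of 9 genes, with a summed level of 5957 to 6445 CPM against 3827 to 4600 CPM with PGE2 alone. Macrophage and monocyte markers summed to 1281 to 1657 CPM in the labelled EP2 plus EP4 group, against 894 to 1136 CPM with PGE2 alone, with 1 of 4 higher (Lyz2, 0.48). The part of either list was not tested.

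**Figure D3:**
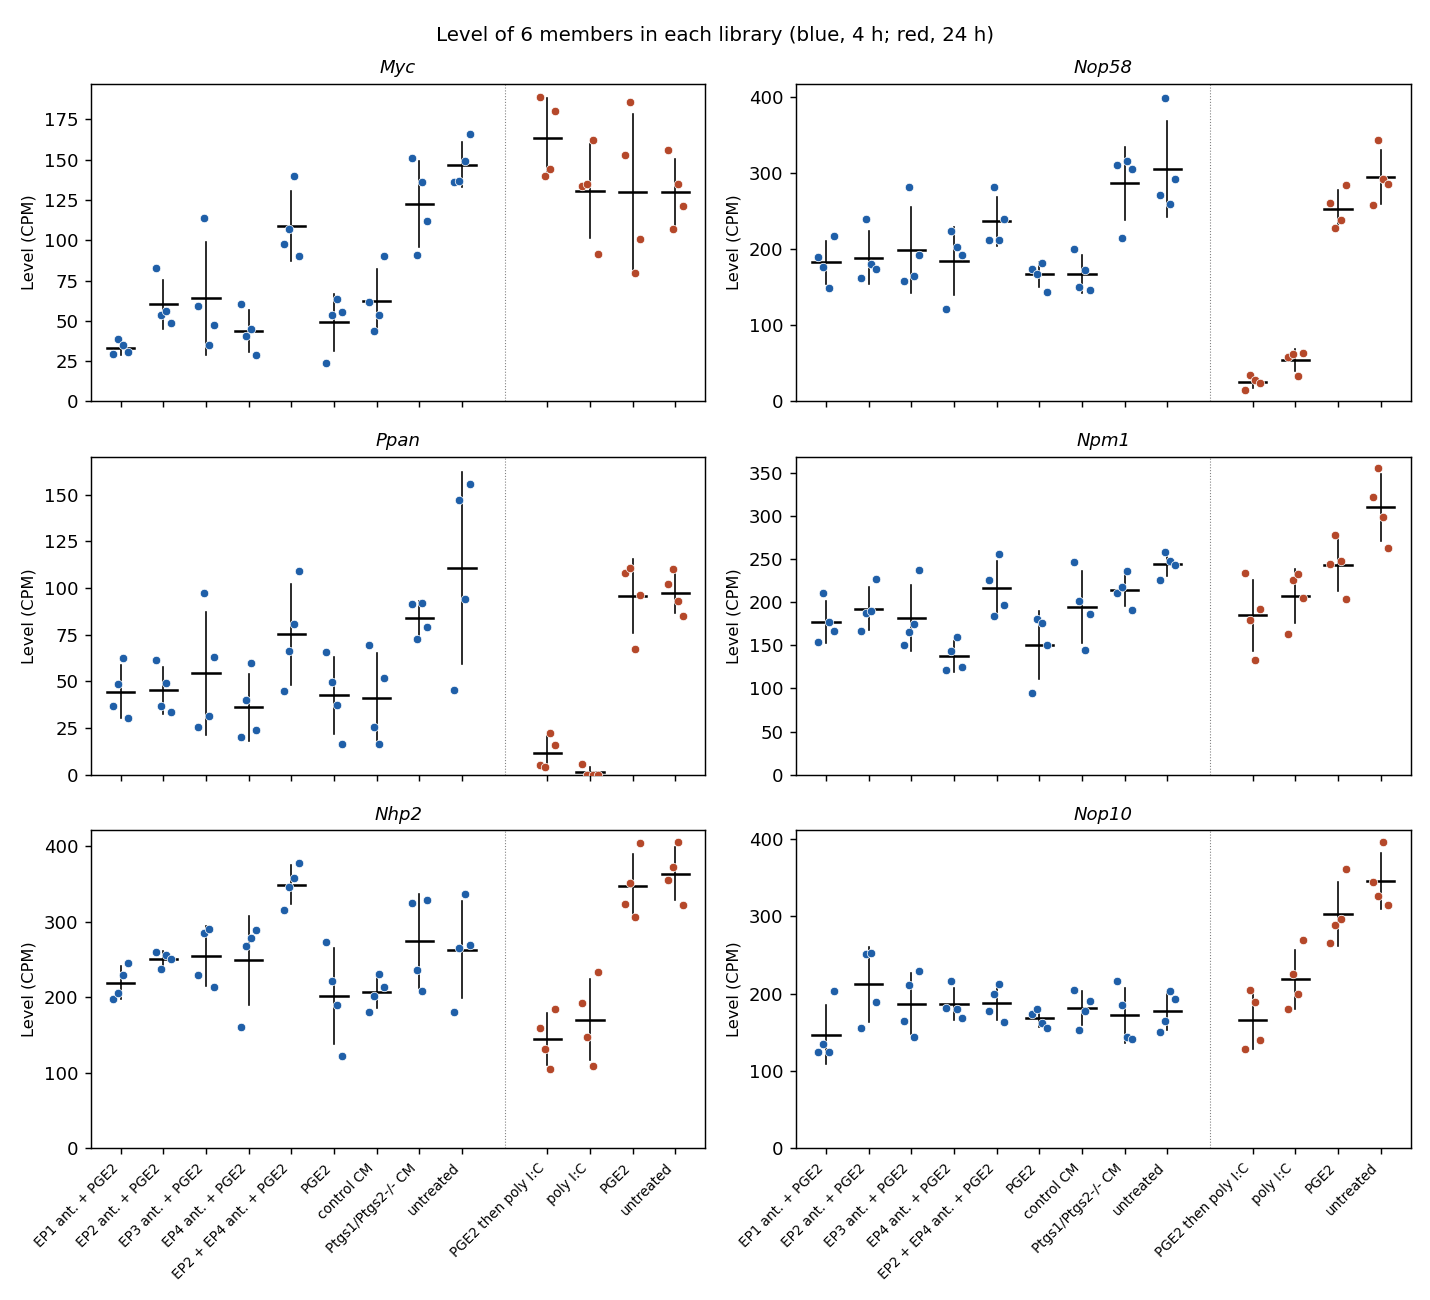
Level in CPM (vertical axis) of Myc, Nop58, Ppan, Npm1, Nhp2 and Nop10 in every library of the 13 groups; each dot is a library. Myc is low in the PGE2 and single antagonist groups at 4 h and between 91.2 and 162 CPM with poly I:C, where Nop58 lies between 33.3 and 63.8 CPM and Ppan is at 0 in 3 of 4 libraries.

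At 24 h PGE2 left no member called: 0 of 27 tested passed in edgeR, against 7.97% of all genes, 2 had an unadjusted p under 0.05, and DESeq2 called none. The median was 0.00 over the members and 0.03 over all genes. Myc had 153, 186, 79.6 and 101 CPM with PGE2, against 156, 107, 135 and 121 CPM without, so the PGE2 libraries spread around the untreated ones on both sides. Its log2 difference was 0.06 with a 95% interval of -0.33 to 0.46, which does not reach the -1.57 of 4 h.

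Ppan had 108, 111, 67.4 and 96.5 CPM with PGE2 at 24 h, against 102, 110, 93 and 85.3 CPM without (0.01). Nop58 averaged 253 ± 25.3 CPM with PGE2 and 295 ± 35.8 CPM without (-0.20, adjusted p = 0.548). Pes1, a subunit of the PeBoW complex of 60S maturation, had the smallest adjusted p (0.59, 0.228).

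The change of the PGE2 effect between times was tested in a fit over both. In this fit, time and any handling that went with it cannot be told apart. For Myc the effect at 24 h minus that at 4 h was 1.62 ± 0.33 (adjusted p = 0.000286), and for Ppan 1.53 ± 0.37 (0.0031); 2 of 28 members passed, both upward, against 2.11% of all genes. The median over the members was 0.72. In untreated cells, 24 h differed from 4 h in 1 member: Nop10, a small H/ACA protein gene, averaged 346 ± 36.3 CPM at 24 h and 178 ± 24.2 CPM at 4 h (0.90 ± 0.15, adjusted p = 5.99e-06; 2.3% of all genes were higher). Its 4 libraries at 24 h (344, 327, 397 and 315 CPM) were all above those at 4 h (151, 164, 203 and 193 CPM).

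Other gene lists moved with PGE2 at 24 h while the members did not pass. Of 20 proliferation genes 13 fell, including Mcm6 (-1.62), Rrm2 (-1.54), Pcna (-1.40) and Top2a (-0.84), with a summed level of 1165 to 1471 CPM against 2140 to 2829 CPM. In the MYC network the MAX partners Mxd1 (1.13) and Mxd4 (1.08) rose and Mxd3 fell (-1.19). Of 9 cDC1 markers 7 fell, with a summed level of 4085 to 4231 CPM with PGE2 against 7217 to 7726 CPM without. Any part of this shift in the members' values was not tested. Of 4 macrophage and monocyte markers 2 rose and 1 fell (1729 to 2061 CPM with PGE2, 1181 to 1609 CPM without). The cDC2 list, at low levels, summed to 142 to 183 CPM with PGE2, against 62.4 to 110 CPM without. The part of either list was not tested. Of 62 cytosolic ribosomal protein genes 4 fell under TMM and 7 under totals.

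Poly I:C for 4 h lowered most of these genes. Of 27 members tested 21 fell and 1 rose, against 33.7% of all genes that fell and 31.3% that rose. The box C/D, H/ACA and phosphoprotein genes tested all fell (3 of 3, 4 of 4 and 4 of 4), as did 7 of 9 genes of 60S assembly and 2 of 4 small subunit genes. Myc was not called.

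Nop58 had 58.1, 62.1, 33.3 and 63.8 CPM with poly I:C, against 258, 344, 293 and 286 CPM without. The groups were far apart, with no overlap. Its log2 fold change was -2.55 ± 0.23 (adjusted p = 1.34e-21).

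Ppan had 5.81, 0, 0 and 0 CPM with poly I:C, against 102, 110, 93 and 85.3 CPM without. That is 1 count against 136, a ratio of 0.0131 (95% exact interval 0.000329 to 0.0742, counting error only), with an adjusted p of 9.55e-17. Dkc1 likewise had 3 counts against 53 (ratio 0.101, 0.0201 to 0.311).

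Ncl had 197, 265, 166 and 237 CPM with poly I:C, against 510, 490, 468 and 437 CPM without. No poly I:C library came near the untreated range. This gave a log2 fold change of -1.25 ± 0.15 (adjusted p = 5.38e-13). Ncl lies on chromosome 1 at 86344719 to 86359400, minus strand.

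Nhp2 had 192, 147, 109 and 233 CPM with poly I:C, against 355, 372, 406 and 322 CPM without (-1.20 ± 0.17, adjusted p = 2.44e-10). Its partner Rmnd5b on the other strand fell as well, to 7.66 CPM with poly I:C, against 73 CPM without (-3.28, 2.02e-09), and the reads of the pair cannot be told apart without strand. For Dkc1 the partner Mpp1 went the other way (3.01).

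Mybbp1a, a nucleolar MYB-binding protein gene, had 17.4, 16.9, 23.8 and 27.4 CPM with poly I:C, against 53.7, 124, 90.2 and 85.3 CPM without (-2.10 ± 0.37, adjusted p = 2.37e-07). Nop16 had 5.81, 22.6, 14.3 and 41 CPM with poly I:C, against 102, 81.7, 78.9 and 49.2 CPM without (-1.95 ± 0.38, 2.87e-06). Both were lower in every poly I:C library than in any untreated library, as were 19 members in all, against 25.7% of all genes. Mybbp1a shares its 3' end with Spns2 on the other strand.

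The other members that fell ranged from Npm1 (-0.69) and Nop10 (-0.76), which kept 207 ± 31.6 and 219 ± 38.5 CPM with poly I:C, to Nolc1 (-2.67) and Rrs1 (-2.61). Between them were the helicase gene Ddx21 (-1.59), the C/D core gene Nop56 (-1.82), the rRNA methyltransferase gene Nop2 (-1.89), the 40S endonuclease gene Nob1 (-2.18) and Pes1 (-1.48). Bop1, the PeBoW partner of Pes1, had -1.17 (adjusted p = 0.0163), a call lost without untreated library B (0.0842) or C (0.0722) or poly I:C library C (0.0654) or D (0.0722). Nop56 shares its 3' end with Idh3b on the other strand (-0.63, 0.0486). Bop1 shares its 3' end with Mroh1 on the other strand, which had 9.37 CPM with poly I:C and 7.41 CPM without.

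Myc had 134, 135, 162 and 91.2 CPM with poly I:C, against 156, 107, 135 and 121 CPM without. The libraries overlapped fully, and the log2 difference was -0.12 (adjusted p = 0.661). Under scaling by totals Myc had -0.89 (0.000138), so its call depends on the scaling. Ltv1 (0.12), Kri1 (-0.35), Gnl3 (-0.91) and Ebna1bp2 (-0.82, 0.0551) did not pass either.

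Polr1c, a subunit shared by RNA polymerases I and III, was the member that rose: it had 52.3, 67.7, 57 and 105 CPM with poly I:C, against 21.5, 45.1, 53.5 and 29.5 CPM without (0.81 ± 0.33, adjusted p = 0.0249). The groups overlapped by 1 library. Under totals the difference was 0.04 (0.912), and the call was also lost with DESeq2 (0.0791), DESeq2 size factors (0.0537), no filter (0.0615) and without untreated library A (0.114) or D (0.0564) or poly I:C library D (0.185).

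The scaling matters for every value with poly I:C. TMM factors were 0.61 to 0.63 in the 8 poly I:C libraries and 1.1 to 1.13 in the other 24 h libraries, and the median of all genes was -0.10 under TMM, -0.21 under DESeq2 size factors and -0.87 under totals. The members' median was -1.59, -1.71 and -2.36 under these. It lay 1.49 below that of all genes under TMM and under totals. A change of scaling moves all genes of a comparison nearly alike, so this gap cannot test the scaling. Under totals 25 of 27 members fell and none rose, against 58.5% of all genes that fell.

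Most other biogenesis factors fell with poly I:C too: 45 of 67 fell and 3 rose, with a median of -1.43. Cd3eap had -4.14, Sdad1 -3.51 and Znrd1 -1.91, while Sbds, which encodes a 60S maturation factor, rose by 3.36 on the log2 scale (2.59 under totals). Cytosolic ribosomal protein genes depended on the scaling: 21 of 62 rose and 2 fell under TMM (median 0.18), whereas 1 rose and 49 fell under totals (median -0.60). Of 8 RNA polymerase III genes 2 rose and 2 fell under TMM, and 1 rose and 6 fell under totals. Under totals 60 of the 67 other biogenesis factors fell and 1 rose.

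**Figure D4:**
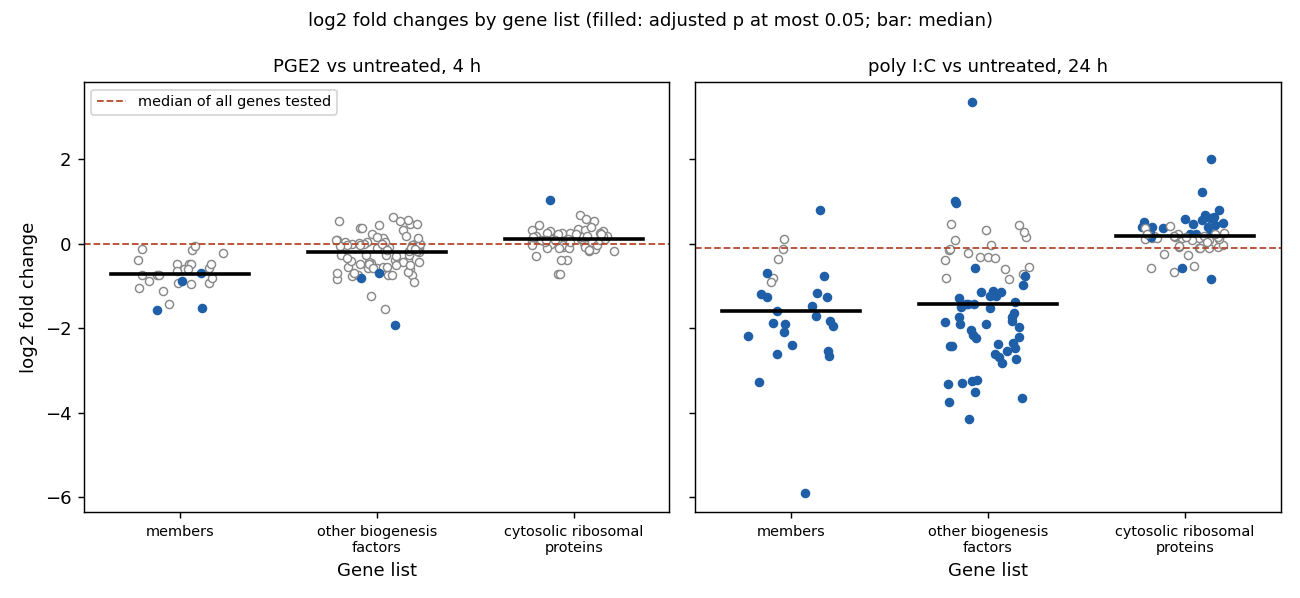
Log2 fold change (vertical axis, TMM) of the members, other biogenesis factors and cytosolic ribosomal protein genes with PGE2 at 4 h and with poly I:C; each dot is a gene, filled where called, the bar is the list's median and the dashed line the median of all genes. With poly I:C the members' median is -1.59 and that of ribosomal protein genes 0.18, which turns to -0.60 when libraries are scaled by totals.

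Lists that moved beside the members with poly I:C were proliferation genes (18 of 20 fell, summed level 728 to 906 CPM against 2140 to 2829 CPM), cDC1 markers (8 of 9 fell, 4163 to 4957 CPM against 7217 to 7726 CPM) and macrophage and monocyte markers (502 to 680 CPM against 1181 to 1609 CPM). Of the plasmacytoid dendritic cell list both tested genes, Bst2 and Tcf4, rose (summed level 627 to 825 CPM against 113 to 171 CPM), while the defining marker Siglech was at 0 in 3 of 4 poly I:C libraries. The cDC2 list, at low levels, summed to 5.81 to 28.5 CPM with poly I:C, against 62.4 to 110 CPM without. The part of these lists in the members' change was not tested. In the MYC network Mxd1, a MAX partner that opposes MYC, averaged 1870 CPM with poly I:C and 18.2 CPM without (6.61), and Max rose (2.21).

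Pre-treatment with PGE2 before poly I:C was compared with poly I:C alone. Of 27 members 2 were lower, the 40S maturation factor gene Ltv1 and Kri1, and none was higher, against 5.65% of all genes that were lower. The median was -0.55, but it lay between -0.48 and -0.26 in the 8 fits that left out 1 library. It was -0.38, -0.26 and -0.28 without poly I:C library A, B or D, and -0.34, -0.35 and -0.36 without pre-treated library A, B or C.

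Marker lists moved in this comparison too. The macrophage and monocyte list summed to 432 to 461 CPM after PGE2 and poly I:C, against 502 to 680 CPM after poly I:C alone, with Lyz2 lower (-0.60). The plasmacytoid list summed to 881 to 1232 CPM after PGE2 and poly I:C, against 627 to 825 CPM after poly I:C alone, with Bst2 higher (0.75). The cDC2 list, at low levels, summed to 44.4 to 64.1 CPM after PGE2 and poly I:C, against 5.81 to 28.5 CPM after poly I:C alone. Of 9 cDC1 markers 3 were lower, including Xcr1 (-1.23), and 1 was higher, Irf8 (0.34). The part of these lists in the members' change was not tested.

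Ltv1 had 14.9, 8.72, 0 and 48.1 CPM after PGE2 and poly I:C, against 81.3, 107, 38 and 54.7 CPM after poly I:C alone. Library D of the pre-treated group reached into the poly I:C range. Its log2 fold change was -1.79 ± 0.43 (adjusted p = 0.00116).

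Kri1 had 4.98, 0, 5.55 and 4.01 CPM after PGE2 and poly I:C, against 11.6, 45.2, 14.3 and 18.2 CPM after poly I:C alone, or 3 counts against 17 (ratio 0.16, 95% exact interval 0.03 to 0.553; adjusted p = 0.0264). The groups did not overlap. The call was lost with no filter (0.0855), with DESeq2 (0.0685) and without poly I:C library B (0.214) or pre-treated library B (0.107) or D (0.0608). Kri1 shares its 3' end with Atg4d on the other strand.

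Nop58 averaged 25.4 ± 8.31 CPM after PGE2 and poly I:C and 54.3 ± 14.2 CPM after poly I:C alone (-1.06, adjusted p = 0.0549). Ppan had 10 counts against 1 (ratio 9.06, 1.29 to 393; 0.0685). Myc had 189, 140, 144 and 180 CPM after PGE2 and poly I:C, against 134, 135, 162 and 91.2 CPM after poly I:C alone, with overlap.

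Relative to PGE2 alone at 24 h, PGE2 with poly I:C lowered 25 of 27 members and raised 1, against 34% of all genes lower and 30.8% higher. Nop58 had 14.9, 34.9, 27.8 and 24 CPM with both agents, against 261, 228, 239 and 285 CPM with PGE2 alone (-3.41 ± 0.27, adjusted p = 4.23e-26). Nhp2 had 159, 131, 105 and 184 CPM against 324, 352, 306 and 405 CPM (-1.37), and Ncl 179, 314, 255 and 196 CPM against 438, 416, 426 and 531 CPM (-1.07), again both agents against PGE2 alone. These 3 genes did not overlap between the groups.

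Pes1 had 9.95, 8.72, 0 and 32.1 CPM with both agents, against 105, 74.9, 82.7 and 121 CPM with PGE2 alone (-2.87), and Mybbp1a fell by 2.86 on the log2 scale. Polr1c was again the member that rose (0.83, adjusted p = 0.0173), with 0.06 and 0.88 under totals. Myc was not called under TMM (0.16). Under totals every member tested but Polr1c was called lower, 26 of 27, so the Myc call depends on the scaling. The interaction, which asks whether the poly I:C effect differed after PGE2, gave 0 of 27 members in edgeR and in DESeq2, and 5 at an unadjusted p under 0.05, against 3.28% of all genes; Ltv1 came closest (-1.61, adjusted p = 0.0741).

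8 members were too sparse for the tests at 4 h. Fbl, the methyltransferase of box C/D particles, had 53 counts over all 52 libraries and Polr1b 46; Utp20, Utp4, Tsr1, Bysl, Polr1a and Polr1e were likewise under the filter, and Wdr12 was at 24 h. In a fit with no filter on low counts (17409 genes at 24 h), poly I:C lowered Wdr12 (0 counts with poly I:C, 54 without, at least 10.1-fold lower on a limit of 3 counts over the group; adjusted p = 2.6e-08) and Polr1e (0 against 19 counts, at least 3.56-fold lower; 0.00185). Utp20 (2 against 30 counts, ratio 0.119, 0.0137 to 0.468; 0.00332), Polr1a (3 against 31, ratio 0.172, 0.0337 to 0.552; 0.00696) and Tsr1 (1 against 18, ratio 0.0989, 0.00237 to 0.626; 0.0244) were lower as well. Bysl (-1.87, 0.0532) was not called with poly I:C, and Fbl had 1 count against 10 (ratio 0.178, 0.0041 to 1.25). Tsr1 and Polr1e share their 3' ends with Srr and Fbxo10 on the other strand. In the fit with the filter, 33.7% of all genes fell with poly I:C, and 34% with both agents against PGE2 alone. The shares of all genes called with no filter are not given here. With PGE2 and poly I:C against PGE2 alone at 24 h, the fit with no filter called 5 sparse members lower: Utp20 (0 against 19 counts, at least 4.34-fold lower; adjusted p = 0.000585), Polr1e (0 against 19, at least 4.34-fold; 0.000856), Utp4 (0 against 13, at least 2.97-fold; 0.0073), Wdr12 (1 against 30, ratio 0.0486, 0.00119 to 0.293; 0.000125) and Polr1a (2 against 28, ratio 0.104, 0.012 to 0.413; 0.00154).

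The same kind of fit at 4 h (19659 genes) called Bysl, a 40S maturation factor gene, higher in the labelled EP2 plus EP4 group than with PGE2 alone. Bysl had 30.5, 34.6, 29.6 and 22.6 CPM in the labelled EP2 plus EP4 group, against 0, 7.64, 14.4 and 0 CPM with PGE2 alone (2.06 ± 0.59, adjusted p = 0.0302). The groups did not overlap, and PGE2 alone held 7 counts of the gene in all. Bysl shares its 3' end with Ccnd3 on the other strand (0.41, 0.0735 in the fit with the filter).

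Across the 13 groups the levels of Ncl ran from 217 ± 43.5 CPM (poly I:C) to 476 ± 31.7 CPM (untreated 24 h). Those of Nop56 ran from 8.27 ± 5.58 CPM (PGE2 and poly I:C) to 54.3 ± 34.7 CPM (untreated 4 h). The highest Nop56 mean rests on the shallow untreated 4 h library A, at 106 CPM from 7 counts, against 28.6 to 43.6 CPM in libraries B to D. Levels of Ddx21 ran from 16.4 ± 10.2 CPM (PGE2 and poly I:C) to 77.6 ± 26 CPM (labelled EP2 plus EP4 antagonists). Fbl stayed at or under 7.01 ± 6.74 CPM. For Ncl, Nop56 and Ddx21 the poly I:C groups were the lowest 2. Myc was lowest with the EP1 antagonist and PGE2 (33.3 ± 4.27 CPM) and second lowest with the EP4 antagonist and PGE2 (43.6 ± 13.1 CPM). Under TMM it was highest with PGE2 and poly I:C (163 ± 25 CPM). The places of the poly I:C groups in the Myc order depend on the scaling. TMM factors were 0.61 to 0.63 in these 8 libraries and 1.1 to 1.13 in the other 24 h libraries. Nop58 was lowest in the poly I:C groups (25.4 ± 8.31 CPM after PGE2, 54.3 ± 14.2 CPM alone), and the 4 h groups followed with 167 ± 16.2 CPM for PGE2, 168 ± 25 CPM for control CM, 184 ± 28.4 to 199 ± 57.3 CPM with single antagonists, 237 ± 32.7 CPM for the labelled EP2 plus EP4 group, 287 ± 48.1 CPM for Ptgs-deficient CM and 306 ± 63.5 CPM untreated. Ppan averaged 36.1 ± 18.1 to 54.3 ± 33.1 CPM with single antagonists and 75.1 ± 26.8 CPM in the labelled EP2 plus EP4 group. Nop10 lay between 147 ± 38.2 and 212 ± 48.4 CPM in the 9 groups at 4 h, between 166 ± 36.7 and 219 ± 38.5 CPM with poly I:C, and was highest at 24 h with PGE2 (303 ± 41.1 CPM) or untreated (346 ± 36.3 CPM). Nhp2 ran from 145 ± 34.2 CPM after PGE2 and poly I:C to 363 ± 35.1 CPM untreated at 24 h. Dkc1 and Nolc1 stayed low throughout, with at most 39.1 ± 7.19 CPM (untreated 4 h) and 49.3 ± 22.1 CPM (PGE2 24 h). Myc in untreated cells at 4 h (147 ± 14.1 CPM) and in the 3 groups at 130 CPM at 24 h, which stand next to each other in its order, differed by no more than their spread, while Nop58 had a gap beyond its spread between poly I:C alone and PGE2 at 4 h.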

How the data were processed

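The 3' RNA-seq libraries of 52 cDC1 samples were read from the deposited table, whose values the authors made as raw counts of unique molecules per gene, with no normalization. Per the submitters' processing notes, the genome build was GRCm38.p6 and DESeq2 1.14.1 was used; the aligner, and any use of strand, were not given in the sources used here. Of 23136 lines, 1 with text was left out. 20 date-like lines, which name no gene, held 0.105% of counts. Totals ran from 42666 to 438491 counts per library, so low genes rest on few counts.

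Levels are CPM with TMM factors over all 52 libraries. Tests used edgeR 4.0.16 (TMM, filterByExpr by group, robust quasi-likelihood fit) in R 4.3.3, in 3 fits: 36 libraries at 4 h (5754 genes), 16 at 24 h (5273 genes) and 16 across both times (5403 genes). Fold changes are log2 with SE, and p-values were Benjamini-Hochberg adjusted over all genes of a fit, called at 0.05. Every member could be named; values per library are given for up to 6 members called per comparison, and from other lists up to 4 called genes with the smallest adjusted p. The members and lists were chosen with earlier results of these data known. Alternatives were DESeq2 1.42.0, its size factors in edgeR, library totals, no filter, fits on only the groups compared, a replicate block and leaving out each library. The calling was tested on simulated data. Promoters are from RefSeq, positions from the GRCm38 annotation.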

Additional observations from a re-analysis of the deposited data

Results flagged for a closer look

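In 14 of 169 sets of 4 libraries looked at (12 genes and the summed level in 13 groups), 1 library lay far from the other 3 by Dixon's test, which chance gives in about 1 in 20 sets. Single high libraries were Nop56 in control CM library D (57.3 CPM, the others 28.7 to 32.9), Nop56 in EP3 antagonist library B (64.9 CPM, the others 21 to 28.2), Ddx21 in untreated 24 h library C (98.6 CPM, the others 61.8 to 67.6), Nolc1 in PGE2 24 h library D (82.1 CPM, the others 36 to 42.9) and Nop10 in EP1 antagonist library D (204 CPM, the others 124 to 135). Single low libraries were Nhp2 in EP4 antagonist library A, the shallowest of all (161 CPM, the others 268 to 289), and Nop58 in Ptgs-deficient CM library B (215 CPM, the others 306 to 316).

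In 5 further sets the other 3 libraries were at 0 and the remaining one held few counts. These were Fbl in EP4 antagonist library C (8.98 CPM) and in poly I:C library D (4.56 CPM), Dkc1 and Nolc1 after PGE2 and poly I:C (8.72 CPM in library B and 5.55 CPM in library C) and Ppan in poly I:C library A (5.81 CPM). The summed level stood apart in PGE2 4 h library D (1605 CPM, the others 1960 to 1990) and in EP1 antagonist library D (2158 CPM, the others 1880 to 1918).

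The effect of PGE2 differed between times for Myc (24 h minus 4 h, 1.62 on the log2 scale) and for Ppan (1.53), by the test of the difference itself given above.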

How the results depend on the processing

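Of 932 values of single called members under other settings or without 1 library, 893 kept their direction and call, 39 kept the direction and lost the call, and none reversed. With library totals in place of TMM, PGE2 at 4 h had 8 members called and the labelled EP2 plus EP4 group against PGE2 had 4. For PGE2 then poly I:C against poly I:C, 1 member was called with no filter, 1 with DESeq2 and 0 in a fit on only the groups compared, where 6 members could be tested; against PGE2 at 24 h, that fit called 15 of the 16 members it could test. Leaving out 1 library gave 1 to 3 members for control CM against Ptgs-deficient CM, 3 to 6 for control CM against untreated cells (3 without untreated library B), 1 to 3 for PGE2 then poly I:C against poly I:C, and 0 to 1 for the interaction. Against PGE2 at 24 h, calls of Rrp9, Ebna1bp2, Polr1c and Npm1 were each lost without 1 library or another.

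Counts over all genes moved by over 1.5 times in the antagonist comparisons fitted on only the groups compared (EP2 82, EP3 9, labelled EP2 plus EP4 against untreated 75), with no filter (Ptgs-deficient CM against untreated 10, EP3 0, EP4 0, interaction 81, 24 h against 4 h untreated 151, PGE2 effect between times 129), with DESeq2 (Ptgs-deficient CM against untreated 3) and with totals (labelled EP2 plus EP4 against untreated 29). Without 1 library they ranged from 15 to 40 for the labelled EP2 plus EP4 group against untreated cells (15 without untreated library C), 7 to 20 for EP2 (7 without PGE2 library B), 0 to 3 for EP3 and for EP4, 0 to 7 for Ptgs-deficient CM against untreated cells, and 141 to 306 for control CM against Ptgs-deficient CM (141 without Ptgs-deficient library A), so the shares of all genes printed for these comparisons move with single libraries. Replicate letters are shared by all groups, and same-letter libraries deviated together by correlations of -0.066 to 0.056. Counting error at this depth can hide a shared effect, so these correlations cannot tell if the letters pair libraries. With a replicate block 4 members were called for PGE2 at 4 h and 22 for poly I:C, as without it. No count of members changed. Depth limits the members with the fewest counts most. For every value that moved, the cause was not tested.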

Other observations

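A pair of genes outside the 36, chosen after their values were seen, were higher with poly I:C, although most other biogenesis factors fell. Sbds, whose product helps to release EIF6 from the 60S subunit, averaged 759 CPM with poly I:C and 67.3 CPM without (log2 fold change 3.36, 2.59 under library totals). Eif6 itself averaged 1041 CPM with poly I:C and 204 CPM without (2.24, 1.46 under totals), and both passed edgeR's test under either scaling. After PGE2 and poly I:C, Eif6 was lower than after poly I:C alone by 0.59 on the log2 scale under totals (adjusted p = 3.56e-05).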
